A study of Homo sapiens with 8 samples.

Results

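Branch sites bound by the U2 small nuclear ribonucleoprotein were examined in 9 genes of DNA damage signalling and repair: the kinases ATM, ATR and PRKDC, the double-strand break repair genes BRCA1, BRCA2 and RAD50, and the Fanconi anaemia genes FANCA, FANCD2 and FANCI. The members were all clusters that lay whole inside the hg19 span of 1 of these genes, and the transcribed strand was taken from the gene. This gave 430 clusters of 122826 in the whole series. For comparison, 1776 clusters lay within 1 Mb outside the 9 spans.

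The cells were K562, an established erythroleukaemia line, engineered to express SF3B1 with a 3xFlag tag, either wild type or carrying the K700E mutation, and grown in IMDM with fetal bovine serum. The labels do not say whether each line was a clone or a pool, or how much untagged SF3B1 the cells still made. High molecular weight nuclear extract was digested with nucleases, and the protected RNA fragments were recovered with an antibody to SF3A2 (3 libraries from K700E cells and 3 from wild-type cells) or with anti-Flag antibody, which selects the tagged SF3B1 (1 library from K700E cells and 1 from wild-type cells). The antibody to SF3A2 does not select the tagged protein. The 3 SF3A2 libraries of a genotype were represented by 1 table, so 4 tables were compared: SF3A2 K700E, SF3A2 wild type, Flag K700E and Flag wild type. The tables give cluster positions and predicted branch points with a rank, without read numbers, so the depth behind a cluster is unknown and no spread between replicates can be given. Every comparison below is therefore a description with no test. Intervals in parentheses are Wilson 95% intervals over clusters and cover counting error only.

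During splicing the U2 ribonucleoprotein base-pairs with the intron around the branch point, the nucleotide (usually an adenosine) that attacks the 5' splice site and forms the lariat. SF3B1 and SF3A2 are protein components of U2: SF3B1 clamps the branch helix, and SF3A2 belongs to the SF3A complex that bridges SF3B and the rest of U2. K700E is the commonest SF3B1 mutation in myelodysplastic syndromes and is known for use of cryptic 3' splice sites with branch points upstream of the normal one. The 9 genes work in connected pathways. ATM answers double-strand breaks, which RAD50 helps to sense as part of the MRE11-RAD50-NBS1 complex. ATR answers single-stranded DNA at stalled replication forks, and PRKDC encodes the catalytic subunit of the DNA-dependent protein kinase of end joining. BRCA1 and BRCA2 serve homologous recombination. In the Fanconi pathway, which repairs interstrand crosslinks, FANCA belongs to the core complex that leads to monoubiquitination of the FANCD2-FANCI pair.

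Clusters were found in all 9 genes, and their numbers differed between genes and tables. The 430 clusters were listed 415 times in the SF3A2 K700E table, 317 times in SF3A2 wild type, 269 times in Flag K700E and 264 times in Flag wild type. The SF3A2 K700E table was thus the longest, with 1.31 clusters for each 1 in SF3A2 wild type, against 1.35 over the whole series. The corresponding ratio for Flag was 1.02, against 1.06 over the series. The map of clusters along the genes shows each cluster in each table.

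**Figure D1:**
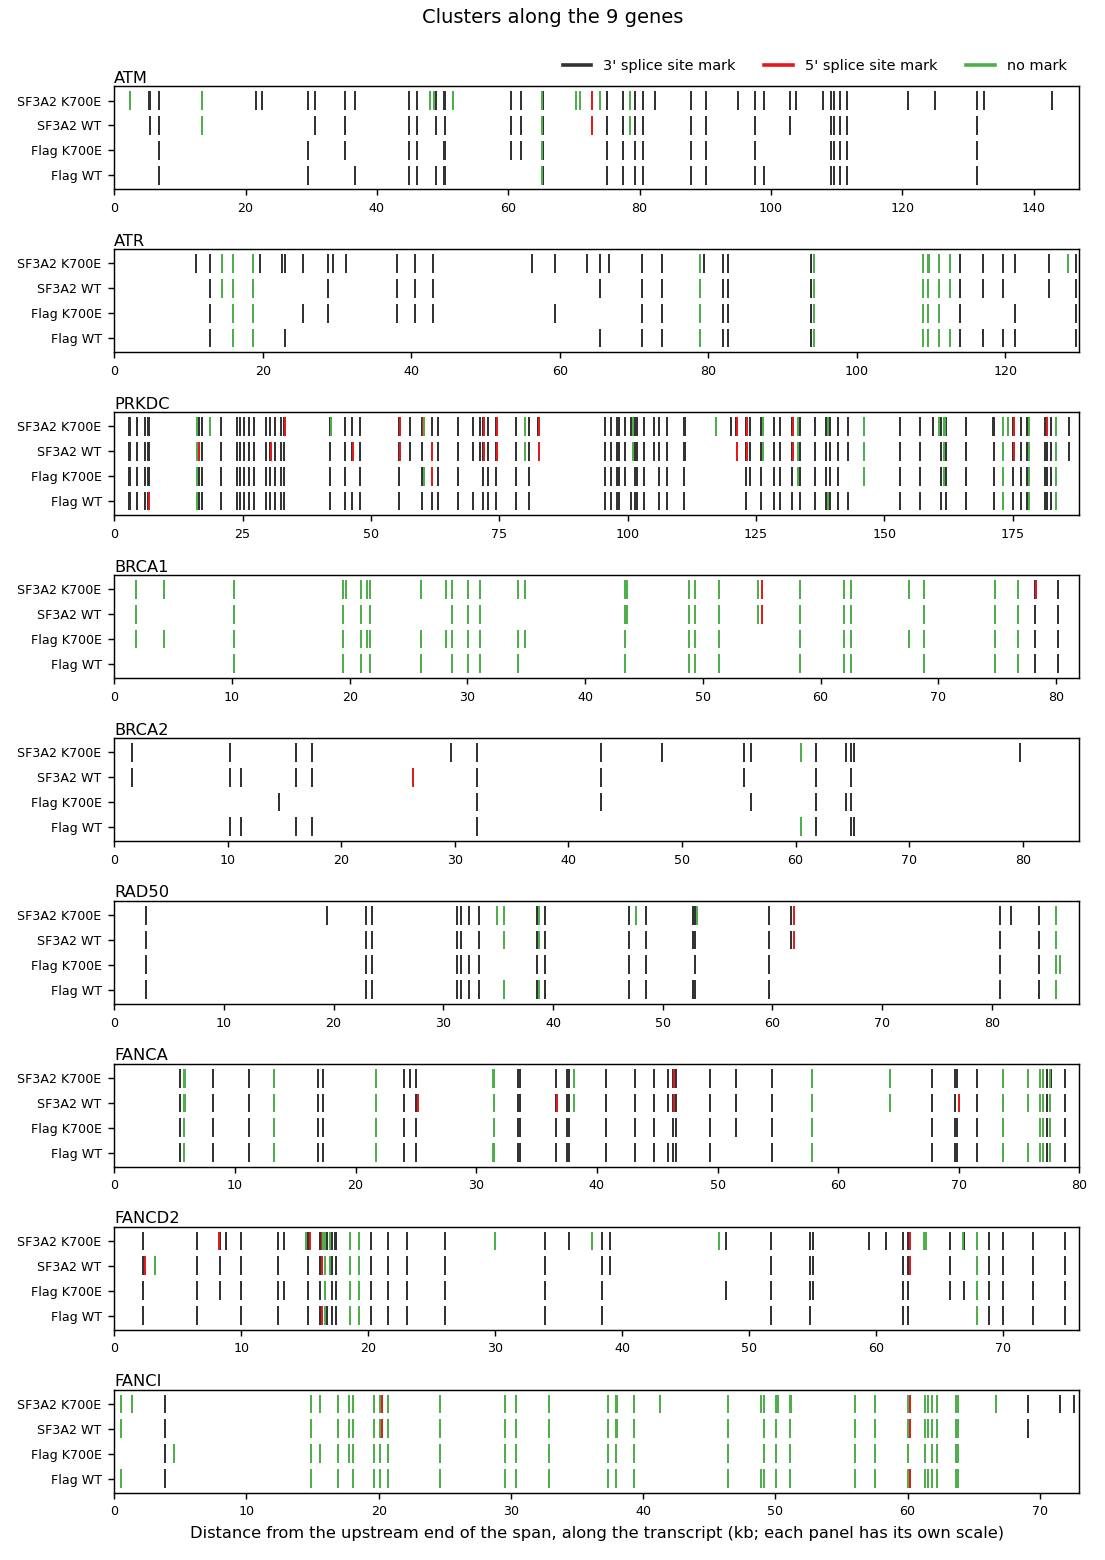
Each panel is 1 gene, the x axis is the distance in kb from the upstream end of its span along the transcript, and each tick is a cluster in the table named on the left, coloured by the mark in its identifier (dark: 3' splice site, red: 5' splice site, green: none). The first row of each panel, SF3A2 K700E, is the densest (50 ATM clusters against 28 in SF3A2 wild type), BRCA1 and FANCI are mostly green, and red ticks are almost absent from the Flag rows.

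Among the kinases, ATM (chr11:108093000-108240000, plus strand) had 50 clusters, of which 50 were in SF3A2 K700E, 28 in SF3A2 wild type, 23 in Flag K700E and 23 in Flag wild type. ATR (chr3:142168000-142298000, minus strand) had 41, with 41, 25, 22 and 21 in the same order of tables. PRKDC (chr8:48685000-48873000, minus strand) had 116, with 111, 98, 77 and 76. In ATM and ATR, as in BRCA1, every cluster found in any table was in SF3A2 K700E. That table held most clusters everywhere, 415 of 430 in the 9 genes and 116273 of 122826 over the series. The SF3A2 lists of ATM and ATR were 1.79 and 1.64 times as long for K700E as for wild type, the highest ratios of the 9 genes. PRKDC had the most clusters, 6.17 per 10 kb, and a K700E to wild-type ratio of 1.13.

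Among the double-strand break repair genes, BRCA1 (chr17:41196000-41278000, minus strand) had 32 clusters, with 32 in SF3A2 K700E, 23 in SF3A2 wild type, 27 in Flag K700E and 21 in Flag wild type. BRCA2 (chr13:32889000-32974000, plus strand) had 19, with 16, 11, 7 and 9. RAD50 (chr5:131892000-131980000, plus strand) had 27, with 26, 20, 17 and 19. The BRCA1 list was longer for K700E in both immunoprecipitations, whereas the Flag lists of BRCA2 and RAD50 were shorter for K700E. BRCA2 was the sparsest gene, with 2.24 clusters per 10 kb.

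Among the Fanconi genes, FANCA (chr16:89803000-89883000, minus strand) had 48 clusters, with 45, 44, 35 and 37 in the same order. FANCD2 (chr3:10068000-10144000, plus strand) had 54, with 52, 35, 32 and 28. FANCI (chr15:89787000-89860000, plus strand) had 43, with 42, 33, 29 and 30. FANCA had nearly the same number of clusters in both genotypes, a ratio of 1.02 for SF3A2 and 0.946 for Flag, and FANCD2 had the highest density of the 9 genes, 7.11 per 10 kb.

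Slightly over 50% of the member clusters were seen whatever the genotype and the antibody. In all, 225 of 430 clusters were listed in all 4 tables, 52.3% (47.6 to 57.0), against 45.3% of all clusters of the series and 43.5% of the 1 Mb flanks. The share without PRKDC, which holds 116 of the 430 clusters, was 49.4%. By gene it ran from 3 of 19 in BRCA2 (15.8%, 5.52 to 37.6) to 33 of 48 in FANCA (68.8%, 54.7 to 80.1). ATM, at 18 of 50 (36.0%), and ATR, at 15 of 41 (36.6%), were also low. PRKDC (60.3%), FANCI (60.5%), BRCA1 (59.4%), RAD50 (55.6%) and FANCD2 (48.1%) lay between these and FANCA, and their intervals overlapped. The intervals of BRCA2, ATM and ATR ended below the lower bound of FANCA. RNA levels of the genes were not analysed here, so more RNA and more U2 binding at a site cannot be told apart.

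In both checkpoint kinases more of the downstream clusters than of the upstream ones were listed in all 4 tables. In the upstream 50% of the ATR span 3 of 18 clusters were in all 4 tables, and in the downstream 50% 12 of 23. In ATM the numbers were 6 of 26 upstream and 12 of 24 downstream. BRCA1 ran the same way, with 7 of 15 and 12 of 17. Over the 9 genes together the shares were 49.5% upstream and 54.9% downstream, and BRCA2 had 1 of 9 and 2 of 10. The other 5 genes had the higher share upstream: PRKDC with 63.0% and 58.1%, FANCA with 72.7% and 65.4%, FANCD2 with 50% and 45.5%, FANCI with 64.7% and 57.7%, and RAD50 with 61.5% and 50%. These differences were not tested.

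**Figure D2:**
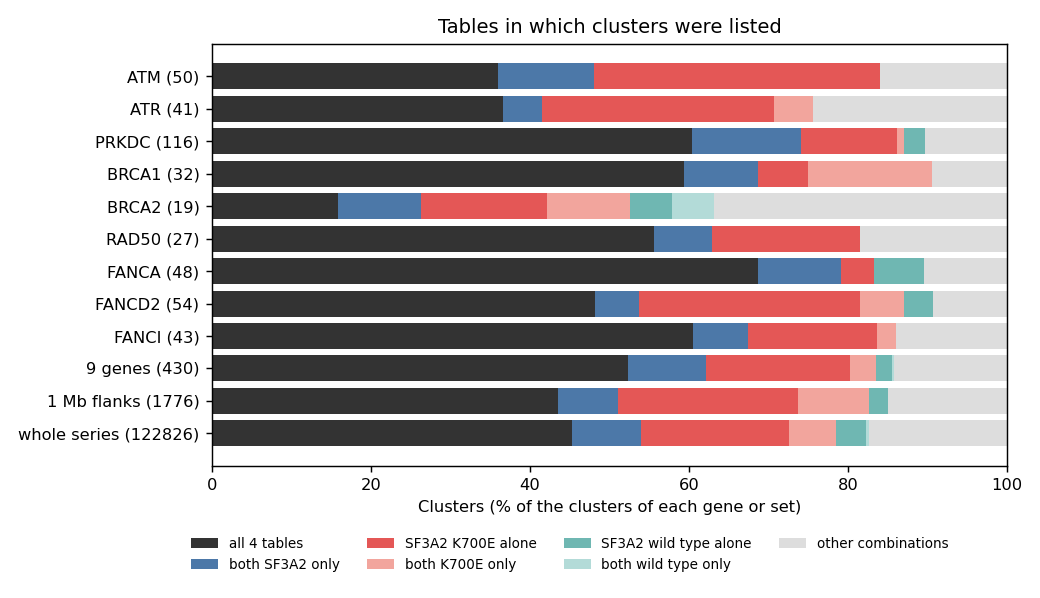
Horizontal bars divide the clusters of each gene, of the 9 genes together, of the 1 Mb flanks and of the whole series by the tables that listed them, in percent, with the number of clusters in parentheses. The dark segment, clusters in all 4 tables, is 15.8% in BRCA2 and 68.8% in FANCA, and the red segment, clusters in SF3A2 K700E alone, is 36.0% in ATM.

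Clusters found for 1 genotype and not for the other were mostly K700E clusters in the SF3A2 immunoprecipitation. Of 426 clusters in either SF3A2 table, 109 were listed for K700E and not for wild type, 25.6% (21.7 to 29.9), against 29.3% over the series and 36.1% in the flanks. Without PRKDC this share was 29.6% (24.8 to 34.9), near that of the series. The flank of BRCA1 supplied 200 of the 640 K700E-specific flank clusters. Of the 426, only 11 were listed for wild type and not for K700E, 2.58% (1.45 to 4.56), against 4.50% over the series. The K700E table holds more clusters throughout, and its depth is not known, so table length and genotype cannot be told apart here.

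Some genes had K700E-specific SF3A2 clusters alone and others had some of each kind, but the counts do not separate 2 classes. The intervals of the wild-type-specific share in genes with 0 such clusters ran from 0 to 7.13% in ATM up to 0 to 12.9% in RAD50. All of them hold the 4.50% of the series. ATM had 22 K700E-specific SF3A2 clusters and 0 wild-type-specific ones, 44.0% of its clusters. ATR had 16 and 0 (39.0%), BRCA1 9 and 0 (28.1%), FANCI 9 and 0 (21.4%) and RAD50 6 and 0 (23.1%). FANCD2 had 19 and 2, PRKDC 17 and 4, BRCA2 7 and 2, and FANCA 4 and 3. The ATM share was the same as in the 1 Mb around ATM, where 51 of 116 clusters, 44.0%, were K700E-specific. BRCA1 lay below its own flank, where 200 of 475 clusters (42.1%, 37.7 to 46.6) were K700E-specific, although the interval of BRCA1 (15.6 to 45.4) overlapped that of the flank. PRKDC, at 14.8% (9.44 to 22.4), lay below its flank at 36.7% (24.7 to 50.7). FANCA, at 8.33% (3.29 to 19.6), lay below its flank at 30.3% (25.3 to 35.9). In those last 2 genes the intervals did not overlap. FANCI and RAD50 were also below their flanks, at 35.4% and 42.9%. The other genes lay above theirs: BRCA2 had 38.9% (20.3 to 61.4) against 12.5% (5.86 to 24.7), ATR 39.0% (25.7 to 54.3) against 24.8% (18.2 to 32.8), and FANCD2 35.2% against 33.8%, with overlapping intervals in all 3.

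In the Flag immunoprecipitation the genotypes were nearly even. Of 301 clusters in either Flag table, 37 were listed for K700E and not for wild type, 12.3% (9.05 to 16.5), against 17.9% over the series. In the reverse direction 32 were listed, 10.6% (7.63 to 14.6), against 13.0% over the series. Without PRKDC the K700E-specific Flag share was 13.8% (9.81 to 19.0), an interval that holds the share of the series. The flanks held 22.8% (20.6 to 25.3) K700E-specific and 8.03% wild-type-specific clusters, so over the 9 genes pooled the K700E-specific share was below that of the flanks and the intervals did not overlap. The flank of BRCA1 supplied 99 of the 273 K700E-specific flank clusters. In 7 genes the share was below that of the gene's own flank, whereas BRCA2 had 30.8% against 8.57% and ATR 22.2% against 16.0%, with overlapping intervals in both.

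By gene, BRCA1 was 1-sided with 6 K700E-specific and 0 wild-type-specific Flag clusters, and FANCD2 had 6 and 2. The other genes were near even or leaned to wild type: ATR had 6 and 5, PRKDC 7 and 6, ATM 3 and 3, BRCA2 4 and 6, FANCI 3 and 4, FANCA 1 and 3, and RAD50 1 and 3. The neighbourhood of BRCA1 was also 1-sided, with 99 and 15 in the flank. Without BRCA1 the K700E share of the genotype-specific Flag clusters was 49.2%, and with it 53.6%.

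**Figure D3:**
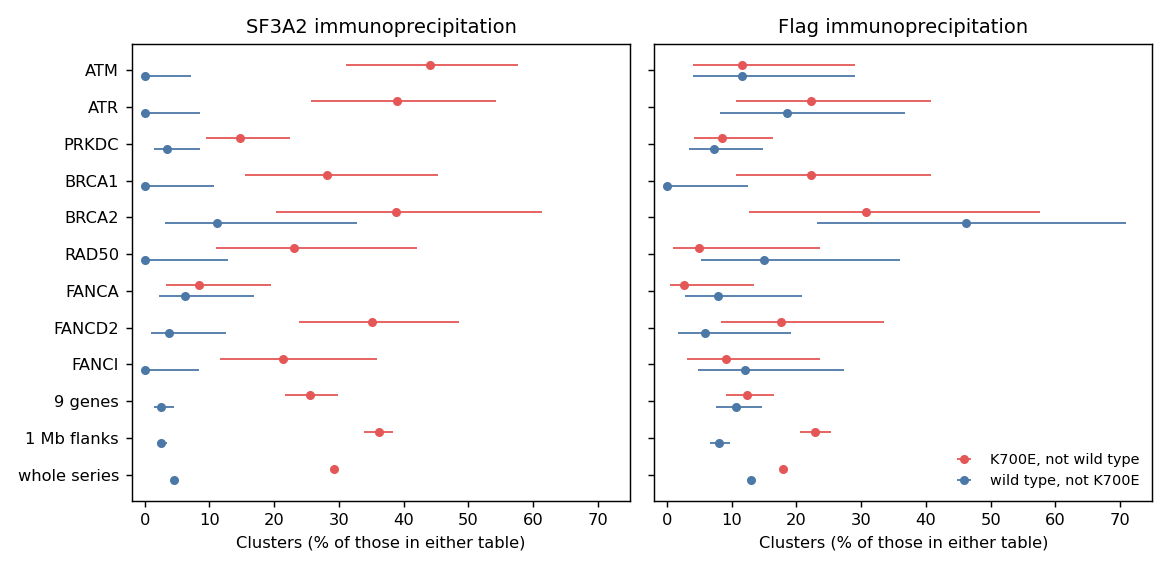
Points are the percentage of clusters listed for 1 genotype and not for the other (red: K700E, blue: wild type), among clusters in either table of the immunoprecipitation named above each panel, and bars are Wilson 95% intervals. Red lies right of blue for every gene with SF3A2, from 8.33% in FANCA to 44.0% in ATM, while with Flag the red and blue bars overlap in all 9 genes.

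Listing in both K700E tables and in neither wild-type table was found for 14 of 430 clusters, 3.26% (1.95 to 5.39). The share was 5.88% over the series and 8.84% (7.61 to 10.3) in the flanks. Without PRKDC it was 13 of 314, 4.14% (2.44 to 6.95), an interval that holds the share of the series. The flank of BRCA1 supplied 65 of the 157 such flank clusters. BRCA1 held 5 of the 14, FANCD2 3, ATR 2, BRCA2 2, FANCI 1 and PRKDC 1, and ATM, FANCA and RAD50 had 0. For BRCA1 this was 5 of 32 clusters, 15.6% (6.86 to 31.8), beside 65 of 475 in its flank, 13.7% (10.9 to 17.1). In 10 of the 14 the top branch point was the same nucleotide in both K700E tables.

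Of these 14 clusters, 7 carried the 3' splice site mark. They were chr3:142272593-142272629 and chr3:142238639-142238671 in ATR, chr13:32945039-32945072 and chr13:32953394-32953428 in BRCA2, and chr3:10081362-10081397, chr3:10116152-10116192 and chr3:10134917-10134959 in FANCD2. Both K700E tables gave the same top branch point in the second ATR cluster, 142238647, and in the BRCA2 clusters, 32945061 and 32953417. They also did so in the first and last of the FANCD2 clusters, at 10081386 and 10134944. The 5 BRCA1 clusters were unmarked, and 3 of them had 1 shared top branch point, at 41256491, 41249773 and 41243079. They were picked out after their values were seen. The reverse, listing in both wild-type tables alone, occurred once, 0.233% against 0.375% over the series. That cluster was chr13:32900178-32900220 in BRCA2, marked as a 3' splice site, with the single branch point 32900208 in both wild-type tables.

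Clusters seen with SF3A2 and not with Flag made up a larger group. Both SF3A2 tables and neither Flag table listed 42 of the 430 clusters, against 10569 of 122826 over the series (8.60%). PRKDC held 16 of the 42 and 116 of the 430. Each SF3A2 table stands for 3 libraries and each Flag table for 1, and the part of this in the listing was not tested. The SF3A2 K700E table alone listed 78 clusters, 18.1%, against 18.7% over the series. ATM held 18 of these, FANCD2 15, PRKDC 14 and ATR 12. No member cluster was in both Flag tables and in no SF3A2 table.

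The identifiers of the clusters carry a mark for a 3' splice site, a mark for a 5' splice site or none, and the sources used here do not give how the mark was set. Among members 258 clusters (60.0%) had the 3' mark, against 58.6% over the series, 32 (7.44%) the 5' mark, against 5.48%, and 140 none. The shares were uneven between genes. BRCA1 had only 2 of 32 clusters with the 3' mark and FANCI only 4 of 43, whereas BRCA2 had 17 of 19, ATM 39 of 50, ATR 30 of 41 and PRKDC 82 of 116. The first and last 3'-marked clusters along BRCA1 were chr17:41199743-41199775 and chr17:41197832-41197867, 78.2 and 80.2 kb from the upstream end of its 82 kb span. In PRKDC they were chr8:48870006-48870037 and chr8:48686955-48686991, 2.98 and 186 kb into a span of 188 kb. In FANCI the first was chr15:89790809-89790844 and the last chr15:89859589-89859623.

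Unmarked clusters in BRCA1 and FANCI were often listed in all 4 tables. In BRCA1 17 of 28 unmarked clusters were in all 4 tables and in FANCI 25 of 37, whereas in the other 7 genes 26 of 75 were (34.7%, 24.9 to 45.9), against 37.8% over the series. Of the 3'-marked clusters of the 9 genes, 157 of 258 (60.9%, 54.8 to 66.6) were in all 4 tables, against 54.0% over the series. In ATM 1 of 10 unmarked clusters was in all 4 tables, in RAD50 1 of 7, and in PRKDC 4 of 18.

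Clusters with the 5' splice site mark were listed mainly with SF3A2, as over the series, and PRKDC held 16 of the 32. FANCD2 had 5, FANCA 4, BRCA1 2, FANCI 2, and ATM, BRCA2 and RAD50 1 each, while ATR had 0. They were listed 22 times in SF3A2 K700E, 25 times in SF3A2 wild type, once in Flag K700E and 3 times in Flag wild type. They made up 5.30% of the member clusters of SF3A2 K700E (series 3.58%), 7.89% of SF3A2 wild type (series 6.80%), and 0.372% and 1.14% of the Flag tables (series 0.457% and 0.848%). Of the 32, 4 were in any Flag table, a share near that of the series, 742 of 6734 (11.0%). In all 4 tables there were 0 of the 32 (0 to 10.7%), an interval that holds the 2.61% of the series. Both SF3A2 tables and no other listed 14 of them, against 39.7% over the series, and SF3A2 wild type alone listed 8, against 36.8% over the series.

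Wild-type-specific SF3A2 clusters were mostly of this class. Among clusters found in 1 SF3A2 table, 6 with the 5' mark were K700E-specific and 9 wild-type-specific (series 873 and 2558), whereas those with the 3' mark numbered 58 and 1 and those with none 45 and 1. The K700E share of the 5'-marked ones was 40% (19.8 to 64.3), an interval that holds 50%, and in the 1 Mb flanks 26 were K700E-specific and 23 wild-type-specific. These 9 were 81.8% of the 11 wild-type-specific SF3A2 clusters of the 9 genes, against 46.7% over the series. The K700E share of genotype-specific SF3A2 clusters was 90.8% with every cluster and 98.3% among those with the 3' mark.

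The 5'-marked clusters mostly lay a short way downstream of a 3'-marked one. In 26 of the 32 the top branch point lay 89 to 258 nt downstream of the top branch point of a 3'-marked cluster (median 151 nt), and in 4 a 3'-marked cluster lay within 300 nt on the other side. No such share was computed over the series. Between neighbouring 3'-marked clusters, gaps under 300 nt ran from 0 in BRCA1 and FANCI to 7 in PRKDC, which had 82 such clusters. In PRKDC all 16 had such a neighbour upstream, among them chr8:48817405-48817444, listed in both SF3A2 tables, 144 nt downstream of its neighbour. In FANCI both 5'-marked clusters had an unmarked cluster upstream instead, 157 and 84 nt away. The exceptions with no cluster of any other kind within 300 nt upstream were 1 each in ATM, BRCA1, BRCA2 and FANCD2. As background, the splice sites on either side of an exon are recognised together in genes with long introns. No exon annotation of the files' build was used here.

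Within a cluster the leading branch point nearly always lay toward the downstream end. The highest-ranked branch point, the mean over the tables that listed the cluster, lay nearer the transcript-downstream end in 417 of 430 clusters, 97.0% (94.9 to 98.2), nearer the upstream end in 11, and at the middle in 2. Its median distance to the downstream end was 12 nt, from 11 nt in BRCA1 to 13 nt in ATM, FANCD2 and FANCI, against 22.3 nt to the upstream end. BRCA1, BRCA2 and ATR had it nearer the downstream end in every cluster. The 4 genes on the minus strand had a median of 12 nt and the 5 on the plus strand 12.9 nt, and whether positions count from 0 or 1 is not given, which could move 1 strand by 1 nt. No position of the top branch point was computed over the series, so it cannot be called particular to these genes. The branch points are the authors' predictions, and the part of the prediction in their position was not tested.

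Most of the exceptions were long clusters or clusters near the balance point. Of the 11 nearer the upstream end, 9 were longer than 38 nt and 8 differed by at most 6 nt from even. A pair of them lay at the downstream end of FANCA, chr16:89804174-89804206 and chr16:89805703-89805747, both in all 4 tables, and the first of these was neither long (32 nt) nor near even (20 nt to the downstream end and 12 nt to the upstream end). RefSeq (GRCh38.p14) gives ZNF276 as a gene overlapping FANCA, and the tables carry no strand, so a cluster of an overlapping gene cannot be told apart from one of FANCA. The same limit applies to genes that RefSeq gives as overlapping other members, such as C11orf65 at ATM and POLG at FANCI. RefSeq also holds pseudogenes named after 2 members, BRCA1P1 for BRCA1, and FANCD2P1 and FANCD2P2 for FANCD2. Whether reads from such copies entered the clusters of BRCA1 and FANCD2 was not tested.

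The same nucleotide led the cluster in all 4 tables in most cases. Of the 225 clusters in all 4 tables, 199 had a single top branch point in each, and in 141 of these, 70.9% (64.2 to 76.7), all 4 tables named the same nucleotide, against 71.7% over the series. BRCA1 was the most uniform, with 17 of 18, and FANCA the least among genes with over 10 such clusters, with 15 of 29. FANCI had 17 of 21, ATM 14 of 18, FANCD2 15 of 20, RAD50 9 of 12, PRKDC 45 of 65 and ATR 8 of 13, and BRCA2 had only 3 such clusters, 1 of them uniform. Where the top branch point moved, it moved little: by 1 to 5 nt in 44 clusters, by 6 to 11 nt in 10 and by 12 nt or more in 4. The largest move was 53 nt in FANCA, at chr16:89833606-89833691.

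A switch between genotypes, in which both immunoprecipitations agreed on 1 top nucleotide for K700E and on a different one for wild type, was found in 10 of the 199 clusters, 5.03% (2.75 to 9.0), against 5.15% over the series. The other divisions of the 4 tables into pairs serve as a reference: 2 clusters were split by antibody, 1.01% (series 1.30%), and 3 by the crossed pairs, 1.51% (series 1.01%). In the crossed pairs the genotypes differed within each immunoprecipitation, but in opposite directions. PRKDC held 6 of the 10, ATR 2, BRCA2 1 and FANCI 1. Without PRKDC there were 4, or 2.99%.

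In 9 of the 10 the K700E branch point lay downstream of the wild-type one, by 2 to 7 nt in 8 of them and by 1 nt in the other, a share of 90% (59.6 to 98.2). Over the series, where no strand is given, the K700E branch point lay nearer the closer cluster end, which in these genes is nearly always the downstream one, in 1875 genotype switches and farther from it in 730. That share, 72.0% (70.2 to 73.7), lies inside the interval of the 9 genes. In FANCI, the unmarked cluster chr15:89826318-89826357 led with 89826346 for K700E and with 89826339 for wild type, 7 nt apart and the widest of the 10. In BRCA2, chr13:32950758-32950794 had 32950781 for K700E and 32950777 for wild type. In ATR, chr3:142224157-142224190 had 142224166 for K700E and 142224170 for wild type, which on the minus strand is 4 nt downstream. The other ATR cluster, chr3:142184095-142184126, moved 2 nt, from 142184105 to 142184103.

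In PRKDC the 6 switched clusters lay along the whole gene. At chr8:48845745-48845779 the branch point was 48845753 for K700E and 48845759 for wild type, and at chr8:48695168-48695203 it was 48695177 and 48695182, shifts of 6 and 5 nt downstream. At chr8:48809857-48809890 and chr8:48769875-48769907 the shift was 3 nt downstream, from 48809868 to 48809865 and from 48769887 to 48769884. The first 3'-marked cluster of the gene, chr8:48870006-48870037, moved 1 nt downstream, from 48870018 to 48870017. The exception was chr8:48750002-48750036, where K700E lay 1 nt upstream, at 48750012 against 48750011.

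**Figure D4:**
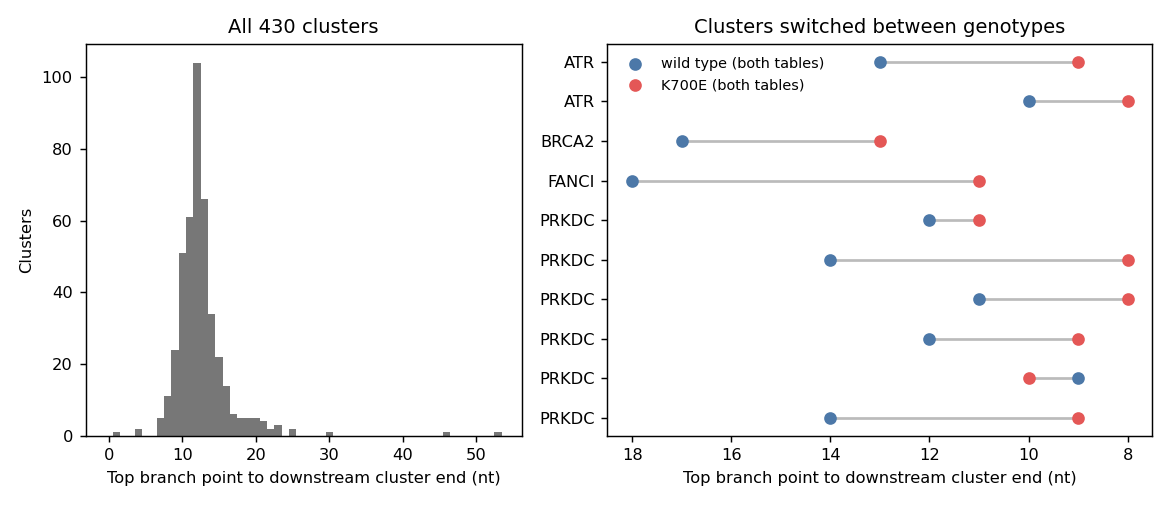
The left panel is a histogram of the distance in nt from the top branch point to the downstream end of its cluster over the 430 clusters, with a median of 12 nt. The right panel gives that distance for the 10 clusters whose top branch point differed between genotypes in both immunoprecipitations (red: K700E, blue: wild type, downstream to the right), and red lies to the right of blue in 9 of 10, beside 72.0% of switches toward the closer cluster end over the series.

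The same lean was seen when each immunoprecipitation was read alone. With SF3A2 the top branch point differed between genotypes in 33 of 199 clusters (16.6%, series 15.4%), with K700E downstream in 24 and upstream in 9. With Flag it differed in 41 (20.6%, series 20.4%), with K700E downstream in 27 and upstream in 14. These counts include the 10 clusters above and are not separate evidence. Between the antibodies, where the genotype was the same, the K700E tables differed in 21 clusters (10.6%, series 11.9%), with SF3A2 downstream in 12 and upstream in 9. The wild-type tables differed in 32 (16.1%, series 15.4%), with SF3A2 downstream in 17 and upstream in 15.

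Clusters in all 4 tables held more predicted branch points for K700E. The mean number in the 225 clusters was 2.91 in SF3A2 K700E, 2.40 in SF3A2 wild type, 2.34 in Flag K700E and 2.11 in Flag wild type. With SF3A2 the difference between genotypes was 0.507 branch points per cluster, against 0.551 over the series and 0.696 in the flanks, and 92 clusters had more for K700E, 8 fewer and 125 the same number. With Flag it was 0.227, against 0.0536 over the series and 0.194 (0.136 to 0.252) in the flanks, with 67 clusters more, 29 fewer and 129 equal. The normal 95% interval over clusters was 0.403 to 0.611 for SF3A2 and 0.122 to 0.331 for Flag. The K700E tables were also the longer ones over the whole series, and the part of table length or depth in this difference was not tested. The deposited rank runs from 1 to 3, so a cluster could hold more than 3 branch points only through ties. This ceiling limits the difference wherever the wild-type number is already near 3.

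The genes differed in this measure. With SF3A2 the difference was positive in all 9, from 0.212 in FANCA to 1.33 in the 3 clusters of BRCA2. With Flag it was 0.667 in the 3 clusters of BRCA2, with an interval of -1.69 to 3.02 that holds 0. It was 0.579 in BRCA1, 0.423 in FANCD2, 0.346 in FANCI, 0.267 in ATR and 0.257 in PRKDC. It was 0 in ATM and RAD50 and -0.121 in FANCA. ATM had a difference of 0.778 with SF3A2 and 0 with Flag.

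**Figure D5:**
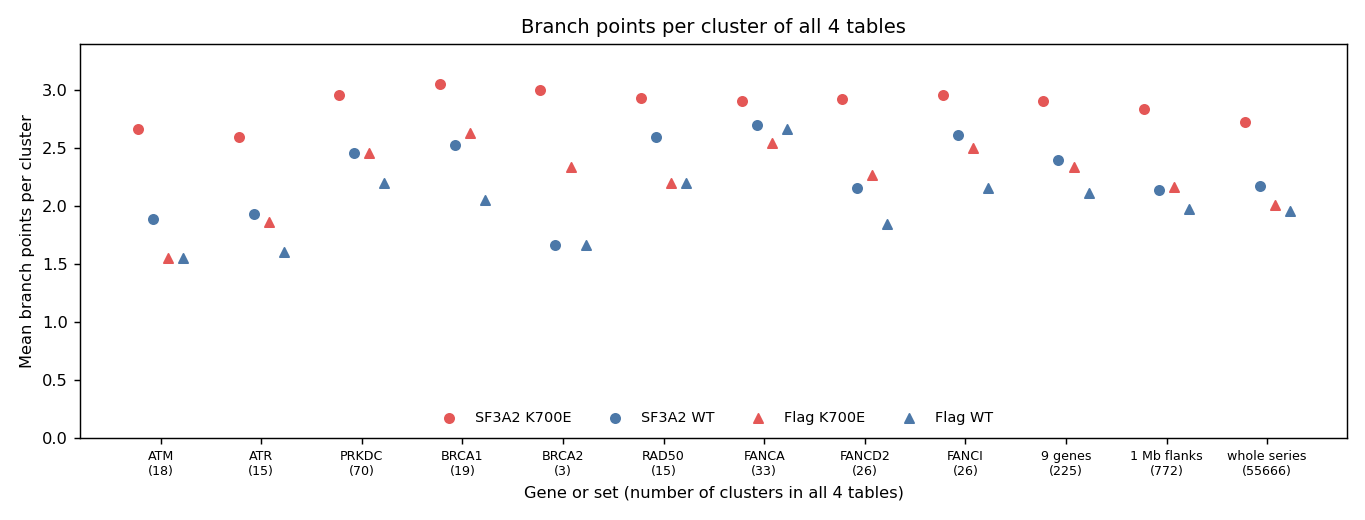
Points are the mean number of predicted branch points per cluster in each table (circles: SF3A2, triangles: Flag, red: K700E, blue: wild type), over the clusters in all 4 tables, with their number in parentheses. SF3A2 K700E is the highest point of every gene, and the red and blue triangles coincide in ATM and RAD50.

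Most wild-type branch points were also predicted for K700E. With SF3A2, 553 branch points were the same nucleotide in both genotypes, 84.7% of the wild-type list and 56.5% of the K700E list, against 81.4% and 51.6% over the series. With Flag 378 were shared, 73.5% of the wild-type list and 64.8% of the K700E list, against 68.8% and 64.1%. In the clusters of all 4 tables, 46 branch points were in both K700E tables and in no wild-type table, 21 of them downstream and 18 upstream of the wild-type top branch point, while in 7 the wild-type tables had no single shared top. In the reverse direction there were 18, with 5 downstream, 11 upstream and 2 without a single shared top. The 46 lay in 42 of the 225 clusters and the 18 in 18 of them. No share over the series was computed for these counts, and the K700E lists held more branch points to begin with.

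Clusters whose top branch points, averaged over the tables, lay under 100 nt apart formed 12 pairs. In 6 of the pairs 1 cluster had the 5' mark. No such count was made over the series. In ATR, chr3:142204189-142204225, in all 4 tables, lay 59 nt upstream of chr3:142204130-142204163, listed in SF3A2 K700E alone. In FANCD2, chr3:10085395-10085430, listed in SF3A2 K700E alone, lay 67.2 nt upstream of chr3:10085458-10085502, in all 4 tables. Both are pairs of 3'-marked clusters, picked out after their values were seen.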

How the data were processed

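U2 IP-seq libraries of K562 cells were analysed from 4 deposited tables, 1 for each antibody and genotype. Per the submitters' processing notes, cutadapt and STAR 2.7.6a were used with hg19, and the authors predicted branch points and ranked them within each cluster. The deposited branch point rank is a score from 1 to 3 with ties, and the other deposited values are positions. No read numbers are given, so no count test could be run and the depth of each sample is unknown. From these tables, clusters were assigned to genes with Python 3.11.15 and pandas 2.3.3. The strand of a gene gave the direction. A genotype switch is a top-ranked branch point that is shared by the immunoprecipitations within each genotype and differs between genotypes, among clusters with a single top in each table. Wilson 95% intervals were computed. The named sites are the switches, clusters in both wild-type tables alone, up to 4 marked clusters per gene in both K700E tables alone, and the first and last marked cluster of genes. The listing classes and the finding of switches were tested on simulated clusters, and the assignment to genes was not. In the 4 tables, 1 row without a cluster identifier was left out, and 0 columns lacked a group. The no-antibody and input controls, and other genes of the pathway, were not analysed here. One label on read layout names HEK293 while the others name K562. The genes and lists were chosen with earlier results of these data known.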

Additional observations from a re-analysis of the deposited data

Results flagged for a closer look

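In 4 genes the number of clusters listed for K700E minus the number for wild type had opposite signs in the 2 immunoprecipitations. It was 5 with SF3A2 and -2 with Flag in BRCA2, 1 and -2 in FANCA, 9 and -1 in FANCI, and 6 and -2 in RAD50. The difference between the immunoprecipitations was not tested, since each is 1 table per genotype.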

How the results depend on the processing

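No paired analysis was possible because the replicate libraries of a genotype were pooled into 1 table. Of 135 alternative values, 124 stayed within the counting error of the main value and 11 moved further. Without BRCA1 the K700E share of genotype-specific Flag clusters passed from above to below 50%, and its interval holds 50% with and without that gene. With 3'-marked clusters only, the share in all 4 tables was 60.9% and the K700E share of genotype-specific SF3A2 clusters 98.3%, and without 5'-marked clusters, an alternative chosen after seeing the data, the latter was 98.1%. With clusters of 30 to 38 nt the share in all 4 tables was 60.6%, the share in both wild-type tables alone 0%, and the share with the top branch point nearer the downstream end 99.1%. Switches of 2 nt or more were downstream in 100% of cases. Over all clusters of each table the SF3A2 difference in branch points per cluster was 0.297, and within 1 nt the SF3A2 tables shared 87.7% of the wild-type branch points. Leaving out each gene in turn gave 49.4% (without PRKDC) to 54.5% (without ATM) in all 4 tables, 2.26% (without BRCA1) to 4.14% (without PRKDC) in both K700E tables alone, 0% (without BRCA2) to 0.318% in both wild-type tables alone, 88.8% to 92.9% for the K700E share of SF3A2, 49.2% (without BRCA1) to 55.9% for Flag, 2.99% (without PRKDC) to 5.88% for genotype switches, 87.5% (without ATR) to 100% (without PRKDC) for their direction, 0.472 to 0.557 and 0.194 to 0.286 for branch points per cluster in SF3A2 and Flag, and 96.5% to 97.4% for the downstream position. The cause was not tested. Unknown depth limits every share.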
